A study of Mus musculus with 17 samples.

Results

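Complement genes were followed through 17 mouse spleen RNA-seq libraries, namely C1qa, C1qb, C1qc, C2, C3, C4b, Cfb, Serping1 and C3ar1. They were taken by exact gene name from the deposited expression table, and all 9 were found among its 38340 named genes. The libraries came from mice labelled as strain CB57BL/6NCrl. The mice had received SLR10, SLR14, poly(I:C) or pppNS (n = 3 each) or the jetPEI carrier alone, called vehicle here (n = 2), or were untreated, called naive (n = 3). The study's title describes the activation of RIG-I, a cytosolic sensor of RNA ends, by a small potent ligand, and poly(I:C) is a man-made duplex RNA that is widely used to mimic viral RNA. By the labels, SLRs were bound, with an N/P ratio of 8, to the polyethylenimine carrier in vivo-jetPEI, and each mouse received 25 µg of RNA in 200 µl by vein. That text stands with every library and names only the SLRs, so the route and dose of poly(I:C) and pppNS rest on it alone. Age, sex and the time from injection to collection were not given in the sources used here. Replicates of a group were taken as separate mice, since the series describes replicate spleens from mice.

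Complement is a cascade of blood and tissue proteins that tags microbes and dying cells for uptake and lysis. The classical pathway starts when C1q, built from the chains encoded by C1qa, C1qb and C1qc, binds antibody on a surface, after which C4 and C2 are cleaved and form an enzyme that cuts C3. Factor B, encoded by Cfb, forms the corresponding enzyme of the alternative pathway and so amplifies the cleavage of C3, the step at which all pathways meet. Serping1 encodes the C1 inhibitor, which blocks the proteases of C1, and C3ar1 encodes the receptor of the released fragment C3a. Most circulating complement is made by the liver, whereas C1q is made largely by macrophages, including those of the spleen.

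In GENCODE vM21 on GRCm38, all 9 genes are protein coding and lie on the minus strand. The C1q chain genes stand next to each other on chromosome 4, with C1qb at chr4:136880129-136886187, C1qc at chr4:136889804-136893065 and C1qa at chr4:136895917-136898803. C4b, Cfb and C2 lie in the class III region of the major histocompatibility complex, at chr17:34728380-34743882, chr17:34856374-34862518 and chr17:34862604-34898265. C3 lies elsewhere on the same chromosome at chr17:57203970-57228136. Serping1 is at chr2:84765387-84775444 and C3ar1 at chr6:122847138-122856161. Neighbouring models touch on how some of these values can be read. The readthrough model Gm20547 (chr17:34856412-34882042) covers 79.5% of the exon bases of Cfb and 42.8% of those of C2, and it was listed at 0 in all 17 libraries. How the counting assigned reads that lie in several genes is not given in the sources used here, so the levels of Cfb and C2 are uncertain. C4b shares 35.2% of its windows of 50 bases with its near-identical neighbour C4a (chr17:34809092-34823464), and 16.5% of its windows of 100 bases. C4a itself was listed at 1.5 to 5.55 CPM, so the split of reads between both copies is uncertain but the bulk was assigned to C4b.

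Promoter sequence was at hand for 4 of the 9 genes, from RefSeq on GRCm38.p6, as the 250 bases before the start that RefSeq gives. The RefSeq and GENCODE starts differ, so part of the C1qc window (chr4:136892915-136893164) lies inside the C1qc gene as placed above. The windows of C3 and C1qb are shown because C3 was among the genes that rose and C1qb was the chain gene that differed least from vehicle with the SLRs. Capitals mark matches to the motifs that were searched on both strands: an interferon-stimulated response element (GAAA and GAAA with 2 bases of any kind between), a gamma-activated site (TTCNNNGAA), a kappaB site (GGGA and CC with 4 bases between), a C/EBP site (TTGCNNAA) and a PU.1 box (GAGGAA). Both are written 5′ to 3′ on the minus strand, from chr17:57228137-57228386 for C3 and chr4:136886201-136886450 for C1qb.
C3: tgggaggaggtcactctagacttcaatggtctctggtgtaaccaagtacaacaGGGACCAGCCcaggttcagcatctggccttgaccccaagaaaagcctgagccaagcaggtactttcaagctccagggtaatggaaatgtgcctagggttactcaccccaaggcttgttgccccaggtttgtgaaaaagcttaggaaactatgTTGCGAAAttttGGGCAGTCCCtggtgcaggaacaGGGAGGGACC
C1qb: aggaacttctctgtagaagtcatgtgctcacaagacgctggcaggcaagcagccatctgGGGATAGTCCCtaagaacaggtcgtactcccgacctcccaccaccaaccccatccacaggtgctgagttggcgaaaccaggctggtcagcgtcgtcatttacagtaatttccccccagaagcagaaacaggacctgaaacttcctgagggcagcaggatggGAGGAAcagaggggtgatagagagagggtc
The C3 window held a C/EBP match from -45 to -38, counted from the start, and 3 kappaB matches, at -197 to -188, -33 to -24 and -10 to -1. The C1qb window held a PU.1 match at -30 to -25 and a pair of overlapping kappaB matches on opposite strands between -191 and -181. The C1qc window, not printed, held 1 kappaB match and 1 PU.1 match, and the C3ar1 window held none of these motifs. No window of the 4 held a match to the interferon-stimulated response element or the gamma-activated site, which 2.98% and 7.02% of all 32851 windows of this length held. A kappaB match stood in 17.6%, a C/EBP match in 9.56% and a PU.1 match in 23.3% of all windows. A match is only a run of letters and not a measured binding site.

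Total depth ranged from 26.5 M to 42.8 M reads per library, the part in named genes from 15.8 M to 29.6 M, and 1 read was worth 0.0175 to 0.0431 CPM. Markers fitted the labelled tissue, with the 5 B cell markers summing to 963 to 2295 CPM and the 10 red pulp macrophage markers to 788 to 1454 CPM in every library. Erythroid markers were high in SLR14 replicate 2, poly(I:C) replicates 2 and 3 and pppNS replicate 3, where the mean log2 level of 6 markers was 9.94 to 11.07, against 5.48 to 9.01 in the other 13 libraries. These 4 libraries are called erythroid-high below. Liver RNA was close to absent, since 6 hepatocyte markers summed to 0.08 to 0.77 CPM, and 4 of the 6 were at 0 in every naive library (Alb, Ttr, Apob and Fgb). All levels below are on the deposited CPM scale, and changes are log2 differences of CPM + 0.5 from limma over 14012 tested genes, with Benjamini-Hochberg adjustment and a threshold of 0.05. All 9 complement genes were tested. Cfb passed the filter of 1 CPM in 2 libraries only through the SLR and poly(I:C) libraries, and C3ar1 only through SLR10 replicate 1 and SLR14 replicate 2.

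Per kilobase of exon, the order of the group means differed between groups. In vehicle spleen, the C1q chain genes C1qa (123 CPM per kb) and C1qb (106 CPM per kb) stood above C3 (67.5 CPM per kb) and C1qc (64.1 CPM per kb). Serping1 (34.4 CPM per kb) and C4b (17.4 CPM per kb) followed. C2 (1.18 CPM per kb), C3ar1 (0.12 CPM per kb) and Cfb (0.11 CPM per kb) were near the bottom. With SLR10, C3 came first at 169 CPM per kb and C1qb second at 99.2 CPM per kb, while Serping1 reached 76.2 CPM per kb and Cfb 0.76 CPM per kb. C3 also led with SLR14 (147 CPM per kb). With poly(I:C) C1qb (105 CPM per kb) and C1qa (98.02 CPM per kb) stayed above C3 (93.5 CPM per kb), although C3 came first in poly(I:C) replicate 1. The means of pppNS and naive spleen shared the order C1qa, C1qb, C1qc and C3, but within pppNS only replicate 3 showed it. In pppNS replicate 1 C3 (106 CPM per kb) stood above C1qb (96.7 CPM per kb). In pppNS replicate 2 C3 (76.0 CPM per kb) stood above C1qc (57.7 CPM per kb).

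**Figure D1:**
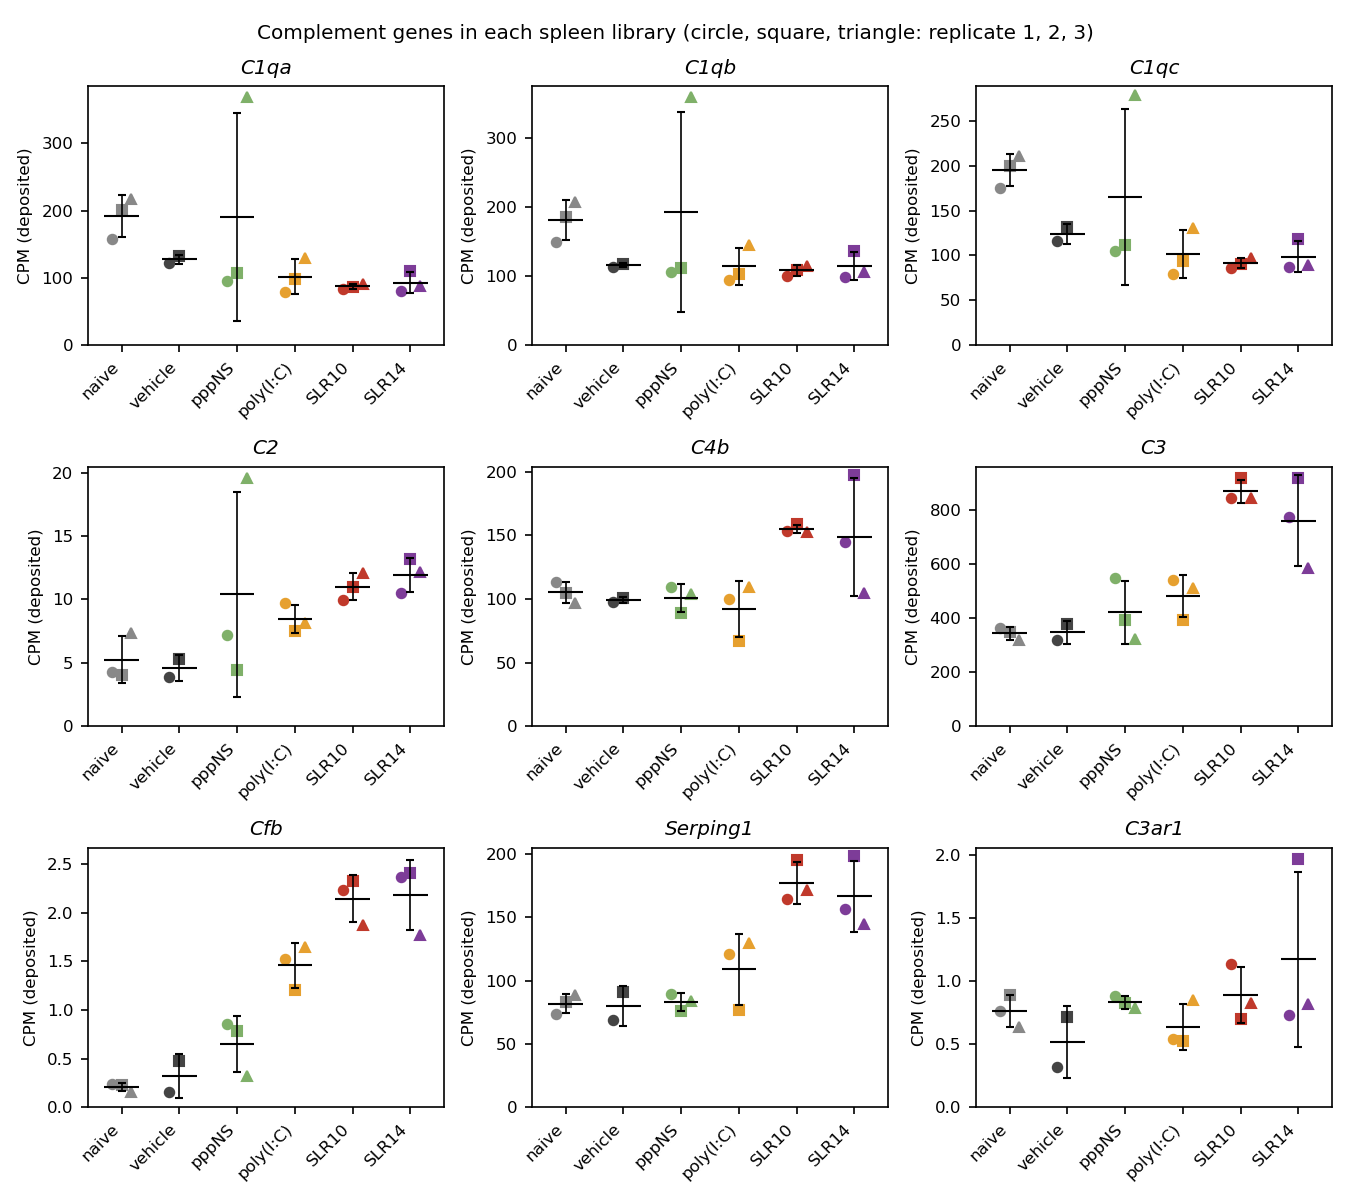
Level of each complement gene in each of the 17 libraries, in CPM as deposited, with a bar at the group mean and whiskers of 1 SD (n = 3, vehicle n = 2). Each panel has its own axis from 0. C3 in SLR10 lay at 842 to 918 CPM against 317 to 377 CPM in vehicle, and the C1q chain genes of pppNS replicate 3 stood at 278 to 369 CPM.

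C3, the central component, had the highest CPM of the 9 genes in every library but pppNS replicate 3, where C1qa and C1qb stood above it. It was at 317 and 377 CPM in the vehicle libraries and at 363, 349 and 317 CPM in the naive ones. SLR10 libraries had 842, 918 and 842 CPM, and SLR14 libraries 773, 919 and 584 CPM. Every SLR library therefore lay above all 5 control libraries, and the lowest of them was SLR14 replicate 3. C3 was 2.51-fold higher with SLR10 (95% interval 1.77 to 3.55, limma adjusted p = 0.00045) and 2.16-fold higher with SLR14 (1.52 to 3.05, limma adjusted p = 0.0018). Poly(I:C) libraries had 540, 393 and 510 CPM, all above the controls as well, but the log2 difference of 0.46 ± 0.23 (SE) from vehicle did not pass (limma adjusted p = 0.144). With pppNS the values were 547, 391 and 323 CPM, which overlapped the controls.

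Cfb, the protease of the alternative pathway, was rare at rest and showed the largest change of the 9 genes against vehicle with SLR10, SLR14 and poly(I:C). The controls had 6 to 24 reads per library, which corresponded to 0.158 and 0.477 CPM in vehicle and 0.238, 0.227 and 0.159 CPM in naive spleen. SLR10 gave 2.24, 2.33 and 1.87 CPM, SLR14 gave 2.37, 2.41 and 1.77 CPM, and poly(I:C) gave 1.52, 1.2 and 1.65 CPM. Libraries of these 3 agents did not overlap the controls. The pppNS libraries stood lower, at 0.852, 0.785 and 0.320 CPM, and the last of these lay within the control range. On the log2 scale the rise was 1.72 ± 0.23 (SE) with SLR10 (limma adjusted p = 4.64e-05), 1.73 ± 0.23 with SLR14 (limma adjusted p = 4.41e-05) and 1.28 ± 0.23 with poly(I:C) (limma adjusted p = 0.0006). Because 0.5 CPM was added before the logarithm, these changes understate a gene that starts below that level. The pppNS difference of 0.49 ± 0.23 did not pass (limma adjusted p = 0.221), and it passed in 3 of 19 alternative analyses.

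Serping1, the brake on C1, rose together with C3. It was at 68.7 and 91.1 CPM in vehicle and 73.8, 83.0 and 88.9 CPM in naive spleen. With SLR10 it reached 164, 196 and 172 CPM and with SLR14 157, 198 and 145 CPM, again without overlap with the controls. This was 2.23-fold (1.62 to 3.07, limma adjusted p = 0.00069) and 2.08-fold (1.51 to 2.87, limma adjusted p = 0.0014) above vehicle. Poly(I:C) libraries had 121, 76.8 and 129 CPM, of which replicate 2 lay within the control range, and the difference of 0.42 ± 0.22 did not pass (limma adjusted p = 0.146). It passed without poly(I:C) replicate 2, at 0.66 (limma adjusted p = 0.0154). The pppNS libraries, at 89.7, 76.0 and 83.5 CPM, lay inside the control range.

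The classical pathway components C2 and C4b moved less firmly. C2 was at 3.87 and 5.28 CPM in vehicle and at 4.26, 4.04 and 7.37 CPM in naive spleen. SLR10 gave 9.94, 11.0 and 12.1 CPM, SLR14 10.5, 13.2 and 12.2 CPM and poly(I:C) 9.68, 7.54 and 8.15 CPM, so that all 9 of these libraries exceeded the controls. C2 rose 2.28-fold with SLR10 (1.22 to 4.28, limma adjusted p = 0.0372) and 2.46-fold with SLR14 (1.31 to 4.62, limma adjusted p = 0.0246). Its poly(I:C) difference of 0.83 ± 0.42 did not pass (limma adjusted p = 0.148). The pppNS libraries were spread out, at 7.17, 4.44 and 19.6 CPM, and the high value came from replicate 3, an erythroid-high library. The SLR10 call of C2 was lost when any single SLR10 or vehicle library was left out (limma adjusted p = 0.0597 to 0.216). For SLR14 it was lost when SLR14 replicate 2, SLR14 replicate 3 or either vehicle library was left out (limma adjusted p = 0.0551 to 0.169).

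C4b, which encodes the C4 protein of the classical and lectin pathways, was at 97.4 and 100.9 CPM in vehicle and 113, 105 and 97.0 CPM in naive spleen. In SLR10 the libraries agreed closely, at 154, 159 and 153 CPM, all above the controls. In SLR14 they were scattered, at 144, 197 and 105 CPM, with replicate 3 inside the control range. C4b rose 1.56-fold with SLR10 (1.10 to 2.22, limma adjusted p = 0.0425), whereas the SLR14 difference of 0.54 ± 0.24 did not pass (limma adjusted p = 0.0886). The SLR10 call was lost when any single SLR10 or vehicle library was left out (limma adjusted p = 0.0822 to 0.169), and SLR14 gained one without its replicate 3 (0.77, limma adjusted p = 0.0159). The SLR14 difference changed sign to -0.12 under quantile scaling and to -0.02 when libraries were scaled to their reads in named genes. Poly(I:C) gave 99.8, 67.0 and 109 CPM and pppNS 110, 88.9 and 104 CPM, neither above the controls.

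C3ar1, the C3a receptor, was at 0.316 to 0.892 CPM in the 5 control libraries and at 0.520 to 1.97 CPM in the 12 libraries of treated mice. The highest value came from SLR14 replicate 2, an erythroid-high library, and the other SLR14 libraries were at 0.727 and 0.819 CPM. The depth behind this gene was 12 to 62 reads per library, and no comparison passed for it in the analysis described above. The largest difference from vehicle was 0.67 ± 0.27 with SLR14 (limma adjusted p = 0.0679), with a fold interval of 1.06 to 2.40 before adjustment. It passed in 3 of 19 alternatives, namely quantile scaling (0.82), DESeq2 (1.14) and without SLR14 replicate 1 (0.86, limma adjusted p = 0.0343).

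The C1q chain genes did not follow C3. C1qa was at 123 and 132 CPM in vehicle and at 158, 201 and 218 CPM in naive spleen. It was lower in every SLR library, at 84.0, 87.1 and 90.6 CPM with SLR10 and 80.3, 111 and 87.3 CPM with SLR14. Poly(I:C) libraries had 78.4, 97.6 and 130 CPM, and pppNS libraries 95.7, 108 and 369 CPM. The SLR libraries therefore lay below all controls, while pppNS replicate 3 lay above all other libraries on the deposited scale. Its column sum of 1484240 was the largest, against 836415 and 782210 in its group mates. By reads, C1qa had 10373 of 41.7 M in pppNS replicate 3 and 11482 of 42.8 M in naive replicate 2. The part of the scaling in that high level was not tested. The C1qa difference from vehicle was -0.54 ± 0.42 with SLR10 (limma adjusted p = 0.347) and -0.47 ± 0.42 with SLR14 (limma adjusted p = 0.431), neither of which passed.

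C1qc behaved like C1qa, with 116 and 132 CPM in vehicle, 176, 199 and 210 CPM in naive spleen, 86.0, 90.8 and 97.1 CPM with SLR10 and 87.5, 118 and 89.5 CPM with SLR14. The SLR10 libraries lay below all controls and SLR14 replicate 2 overlapped them. The differences of -0.44 ± 0.33 and -0.34 ± 0.33 from vehicle did not pass (limma adjusted p = 0.339 and 0.472). C1qb, the third chain gene, differed least from vehicle with the SLRs, with 113 and 117 CPM in vehicle against 99.7, 109 and 115 CPM in SLR10 and 98.4, 137 and 106 CPM in SLR14. Its SLR10 difference was -0.10 ± 0.40 (limma adjusted p = 0.881). In poly(I:C) it was at 93.7, 103 and 145 CPM and in pppNS at 105, 112 and 359 CPM.

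Whether C1qa and C1qc passed depended on the analysis. Each was called lower with SLR10 in 7 of 20 alternatives. These were quantile and named-gene scaling, library weights, only the groups compared, naive spleen with or without vehicle as the control, and the erythroid-high libraries left out. Each of these settings also called more of all 14012 tested genes lower with SLR10 than the 2694 of the analysis described above. The numbers ran from 2874 under quantile scaling to 4966 with library weights. With library weights C1qa was at -0.54 and C1qc at -0.43 (limma adjusted p = 0.00025 and 0.00096), close to the differences given above but with smaller SEs. When libraries were scaled to their reads in named genes, C1qa fell by 1.05 and C1qc by 0.94 with SLR10 (limma adjusted p = 0.0158 and 0.0068), but this scaling moved the median of all genes to -0.47. Relative to that median C1qa was at -0.57 and C1qc at -0.47. With naive spleen as the control, C1qa was 1.12 and C1qc 1.09 lower on the log2 scale with SLR10 (limma adjusted p = 0.0234 and 0.0075). C1qb did not pass in any of the 20 alternatives for SLR10. Without pppNS replicate 3, the pppNS difference of C1qa from vehicle went from 0.29 to -0.33, that of C1qb from 0.49 to -0.09 and that of C1qc from 0.26 to -0.19. None of these 6 values passed (limma adjusted p = 0.431 to 0.873).

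**Figure D2:**
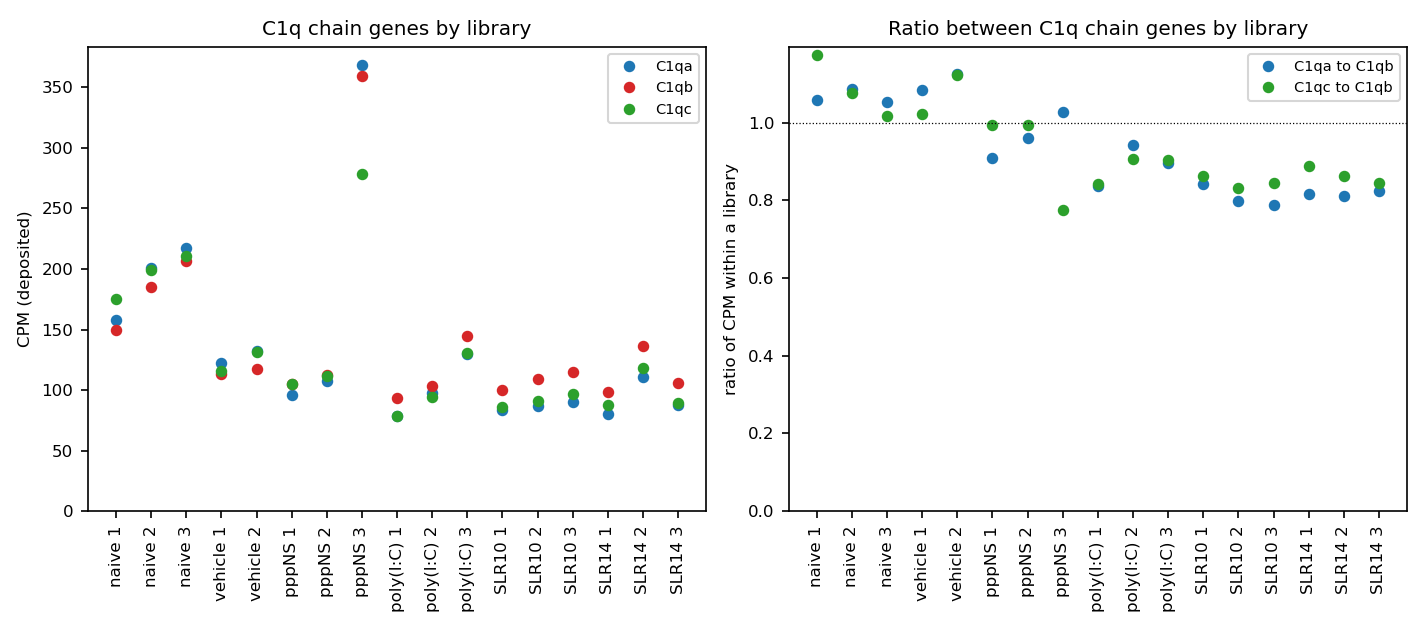
Left, CPM of the C1q chain genes in each library. Right, ratio of C1qa and of C1qc to C1qb within each library, which a scaling by 1 factor per library cannot move. The SLR libraries had a C1qa to C1qb ratio of 0.787 to 0.842 and the control libraries 1.05 to 1.13. In pppNS replicate 3 all chain genes were high on the deposited scale.

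Since C1q is a macrophage product, macrophage markers were set beside it. Of the 10 red pulp macrophage markers, 6 were called lower and 1 higher with SLR10, the same numbers with SLR14, 4 lower and 1 higher with poly(I:C), and 1 each way with pppNS. Over all tested genes, 19.2%, 19.4%, 17.3% and 1.35% were called lower and 20.2%, 19.3%, 18.6% and 2.95% higher in these comparisons. Their sum was 788 to 929 CPM in the SLR libraries, 840 to 993 CPM with poly(I:C), 1092 to 1377 CPM with pppNS, 1157 and 1381 CPM in vehicle and 1022 to 1454 CPM in naive spleen. The 3 marginal zone macrophage markers summed to 50.5 to 83.3 CPM in the SLR libraries, against 78.5 and 114 CPM in vehicle. None of these markers was at 0 in any group. The part of the macrophage markers in the C1q values was not tested. In bulk tissue, fewer cells of a type and less RNA per cell cannot be told apart.

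Counted by comparison, SLR10 against vehicle called 5 of the 9 genes higher (C2, C3, C4b, Cfb and Serping1) and 0 lower. Over all tested genes, 20.2% were called higher and 19.2% lower. SLR14 against vehicle called 4 higher (C2, C3, Cfb and Serping1) and 0 lower, beside 19.3% and 19.4% of all genes. Poly(I:C) called 1 higher, Cfb, and 0 lower, beside 18.6% and 17.3%, so its share among the complement genes was near the background. Cfb passed the filter only through SLR and poly(I:C) libraries, in which it was high. It therefore gives no support to the counts of calls or of ranges for these agents. For pppNS limma called 0 of 9 in either direction, beside 2.95% and 1.35%, 0 of the 9 had an unadjusted p under 0.05, and edgeR and DESeq2 also called 0. The median log2 change of the 9 genes was 0.64 for SLR10, 0.67 for SLR14, 0.18 for poly(I:C) and 0.29 for pppNS. The medians of all genes lay between -0.01 and 0.07. The SLR14 median was the value of C3ar1 itself, which did not pass (limma adjusted p = 0.0679). C3ar1 passed the filter only through SLR libraries, and Cfb only through SLR and poly(I:C) libraries. Medians that include them therefore give no support for these agents. The comparisons with vehicle share the 2 vehicle libraries. By range alone, 5 genes in SLR10 and 4 in SLR14 lay above all 5 controls, as 31.0% and 26.2% of all tested genes did. For poly(I:C) there were 3 such genes beside 25.7%, and for pppNS 0 beside 12.3%. Below all controls were C1qa and C1qc in SLR10 and C1qa in SLR14, beside 32.0% and 25.0% of all genes, and 0 members in poly(I:C) and pppNS, beside 22.8% and 8.38%.

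**Figure D3:**
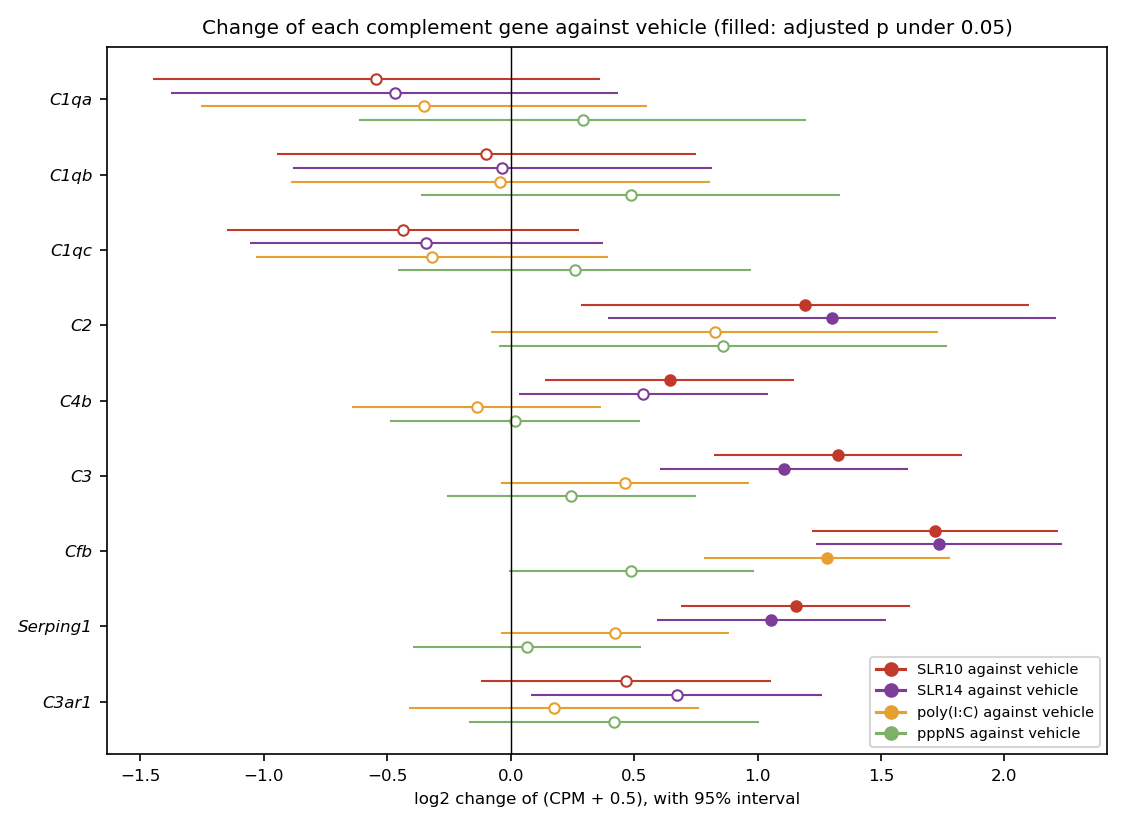
Log2 change of each complement gene against vehicle with its 95% interval for SLR10, SLR14, poly(I:C) and pppNS, from limma on log2(CPM + 0.5). Filled points passed an adjusted p of 0.05: 5 genes for SLR10, 4 for SLR14, 1 for poly(I:C) and 0 for pppNS.

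The carrier itself was examined by comparing vehicle with naive spleen. In limma 0 of the 9 genes passed, beside 0.0143% of all genes called higher and 0.0357% called lower, and 0 of the 9 had an unadjusted p under 0.05. edgeR and DESeq2 also called 0 of the 9. C3 (0.01 ± 0.23), Serping1 (-0.05 ± 0.22) and C4b (-0.08 ± 0.24) hardly differed. The C1q chain genes differed from naive spleen by -0.58 for C1qa, -0.63 for C1qb and -0.65 for C1qc on the log2 scale, with limma adjusted p from 0.57 to 0.637. They passed in 2 of 18 alternatives, with library weights and with the erythroid-high libraries left out of the fit (limma adjusted p at most 0.021). Library weights called 3832 of all 14012 tested genes higher and 4190 lower in this comparison. Leaving out the erythroid-high libraries called 948 higher and 1031 lower.

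SLR14 was compared directly with SLR10. Both the 9 genes and all 14012 genes gave 0 calls (limma), with 0% called higher and 0% lower, and 0 of the 9 genes and 89 of all genes had an unadjusted p under 0.05. edgeR called 0 and DESeq2 called 1 of all genes, which was not among the 9. The interval of the SLR14 to SLR10 fold was 0.742 to 1.38 for Cfb, 0.63 to 1.18 for C3, 0.701 to 1.25 for Serping1 and 0.679 to 1.27 for C4b. It was wider for C2, at 0.615 to 1.89, and for C1qa, at 0.602 to 1.85. Differences inside these bounds were not detectable with 3 libraries each.

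Poly(I:C) was then set against both SLRs together (n = 3 against 6). C3 was lower by 0.75 ± 0.18 on the log2 scale (limma adjusted p = 0.0368), C4b by 0.73 ± 0.18 (limma adjusted p = 0.0442) and Serping1 by 0.68 ± 0.17 (limma adjusted p = 0.0395). These were 3 genes called lower and 0 higher, beside 1.66% and 1.86% of all genes. Cfb (-0.44 ± 0.18, limma adjusted p = 0.199) and C2 (-0.42 ± 0.33, limma adjusted p = 0.516) did not pass. C1qb differed by only 0.02 ± 0.31. All 3 calls were lost when any one of SLR10 replicates 1 to 3, SLR14 replicate 1 or poly(I:C) replicates 2 and 3 was left out. With the erythroid-high libraries left out, an analysis chosen after the data were seen, the values were -0.50 for C3, -0.47 for C4b and -0.43 for Serping1, and none passed (limma adjusted p = 0.15 to 0.218). In that same analysis poly(I:C), then 1 library, was higher than vehicle for C2 (1.02), C3 (0.64) and Serping1 (0.61), with limma adjusted p from 0.0201 to 0.0402, on the assumption that it varied like the other groups.

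pppNS differed from the SLRs more broadly (n = 3 against 6). It was lower for Cfb by 1.24 ± 0.18 (limma adjusted p = 0.0001), for Serping1 by 1.04 ± 0.17 (limma adjusted p = 0.0002), for C3 by 0.97 ± 0.18 (limma adjusted p = 0.0008) and for C4b by 0.57 ± 0.18 (limma adjusted p = 0.0208). That made 4 of 9 genes lower and 0 higher, beside 22.8% and 22.1% of all genes. The Cfb call gives this count no support, since Cfb passed the filter only through SLR and poly(I:C) libraries. C1qa (0.80 ± 0.33, limma adjusted p = 0.0597) and C1qc (0.65 ± 0.26, limma adjusted p = 0.0539) did not pass in the other direction. C1qa passed in 8 and C1qc in 10 of 22 alternatives, among them edgeR (1.00 and 0.71), DESeq2 (1.06 and 0.77), the replicate block (0.80 and 0.65) and quantile and named-gene scaling. Without pppNS replicate 3 those differences were 0.18 and 0.20 (limma adjusted p = 0.422 and 0.36), and C2 became lower by 0.95 (limma adjusted p = 0.0037). Without pppNS replicate 1, by contrast, C1qa (1.15), C1qb (0.86) and C1qc (0.90) all passed (limma adjusted p = 0.0145 to 0.0423). C4b was not called without pppNS replicate 2 (-0.49, limma adjusted p = 0.0795).

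**Figure D4:**
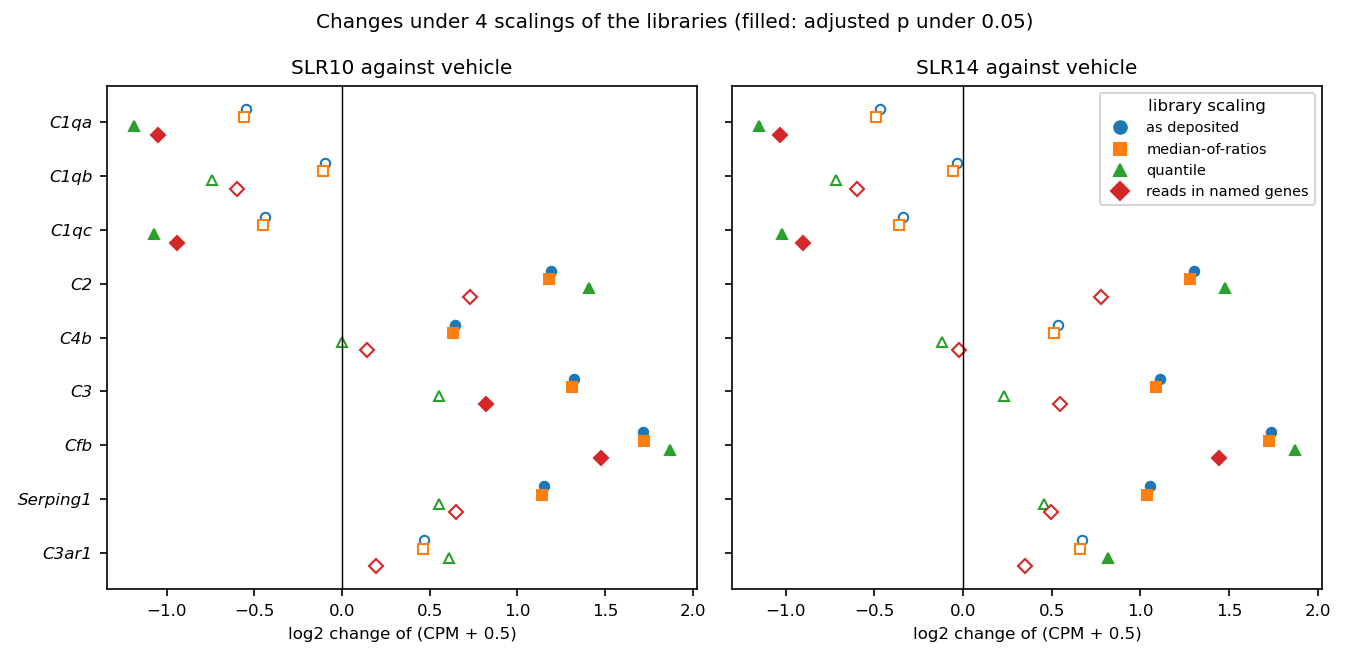
Log2 change against vehicle of each complement gene for SLR10 (left) and SLR14 (right) under 4 scalings of the libraries, with filled marks for an adjusted p under 0.05. Cfb passed under all 4, at 1.44 or more in each, while C3, Serping1, C2 and C4b lost calls under some of them and C1qa and C1qc passed as lower under quantile and named-gene scaling.

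Named genes summed to 664989 to 794826 CPM in the SLR and poly(I:C) libraries and to 471992 to 535609 CPM in the controls, while pppNS had 540357, 516804 and 797049 CPM. Scaling to the reads in named genes turned the 2826 higher and 2694 lower calls over all genes for SLR10 into 1394 and 4865. For SLR14 the 2702 and 2720 became 1224 and 5168, for poly(I:C) the 2606 and 2424 became 1110 and 5338, and for pppNS the 414 and 189 became 244 and 442. For pppNS against both SLRs the 3096 higher and 3190 lower calls became 4452 and 1829, and for poly(I:C) against both SLRs the 260 and 232 became 66 and 155. Quantile scaling gave 1961 and 3045 for poly(I:C) against vehicle and 111 and 217 for poly(I:C) against both SLRs. Under quantile scaling C3 was at 0.55 for SLR10 and 0.23 for SLR14 and did not pass (limma adjusted p = 0.237 and 0.654), and Serping1 was at 0.55 and 0.45 (limma adjusted p = 0.0756 and 0.146). Cfb passed for SLR10, SLR14 and poly(I:C) in each of the 19 alternatives in which it was tested. It was not tested under the filter of 5 CPM, and it had entered the tests only through the libraries of these agents. C3 passed in 19 of 20 alternatives for SLR10 and 18 of 20 for SLR14, and Serping1 in 18 of 20 for each. C4b passed in 11 of 20 for SLR10 and its value was 0.14 with named-gene scaling (limma adjusted p = 0.689). Relative to the shifted median of all genes under that scaling, the SLR10 changes were 1.95 for Cfb, 1.29 for C3, 1.2 for C2, 1.13 for Serping1 and 0.61 for C4b.

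Beyond these 9, 45 further complement genes were listed, of which 42 were found by name and 26 passed the filter. With SLR10, 7 of the 26 rose and 8 fell, beside 20.2% and 19.2% of all tested genes. With SLR14 it was 7 and 6, beside 19.3% and 19.4%, with poly(I:C) 6 and 5, beside 18.6% and 17.3%, and with pppNS 1 and 0, beside 2.95% and 1.35%. The split moved to 6 and 10, 4 and 9, 2 and 10, and 0 and 1 under scaling to named-gene reads, and to 4 and 8 for poly(I:C) under quantile scaling. Without either vehicle library the poly(I:C) counts were 4 and 3. The proteases that C1q activates, encoded by C1ra and C1s1, rose with SLR10 by 1.10 ± 0.17 and 0.83 ± 0.21 (limma adjusted p = 0.00016 and 0.0055). The C1s1 call was lost without vehicle replicate 1 (0.58, limma adjusted p = 0.109) and under quantile (0.38) and named-gene scaling (0.33). C1ra was at 52.8, 57.5 and 52.4 CPM in SLR10 and at 22.5 and 27.8 CPM in vehicle. Masp2, the lectin pathway protease, rose from 0.281 ± 0.025 CPM (SD, n = 2) to 1.05 ± 0.28 CPM (SD, n = 3) in SLR10, where limma gave an adjusted p of 0.008, or 0.0571 without vehicle replicate 1. Hc, the mouse gene of C5, was at 0.208 ± 0.041 CPM in vehicle and at 1.07 ± 0.22 CPM in SLR10, 1.01 ± 0.16 CPM in SLR14 and 0.963 ± 0.20 CPM in poly(I:C). It rose with each of the 3 agents by 1.04 to 1.14 (limma adjusted p at most 0.00027). Both Masp2 and Hc passed the filter of 1 CPM only through libraries in which they were high, Masp2 through SLR libraries and Hc through SLR and poly(I:C) libraries, so their calls give the counts above no support. C4a rose by 1.09 ± 0.20 with SLR10 (limma adjusted p = 0.00061), with the reservation on reads shared with C4b.

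Cd55, Cr2, Itgax and C5ar1 encode membrane proteins that bind complement or break down its enzymes. Cd55, which encodes the decay-accelerating factor that breaks up C3 convertases on the cell's own surface, was at 104 and 120 CPM in vehicle. It was at 20.2, 19.2 and 16.9 CPM with SLR10, 18.7, 25.7 and 18.4 CPM with SLR14, 32.4, 37.2 and 32.0 CPM with poly(I:C) and 82.0, 79.0 and 63.8 CPM with pppNS. Naive spleen had 120, 113 and 116 CPM, so every library of these 4 agents lay below all 5 controls. Of all tested genes, 8.38% did so for pppNS, 22.8% for poly(I:C), 25.0% for SLR14 and 32.0% for SLR10. Such separation alone therefore carries little weight. Cd55 fell by 2.54 ± 0.16 with SLR10 (limma adjusted p = 9.46e-08). It fell by 2.40 ± 0.16 with SLR14 and by 1.71 ± 0.16 with poly(I:C), and the pppNS value of -0.58 ± 0.16 did not pass (limma adjusted p = 0.0667), although it passed in 9 of 20 alternatives. Cr2, the complement receptor of B cells and follicular dendritic cells, fell from 269 ± 14.0 CPM (SD, n = 2) in vehicle to 72.7 ± 19.5 CPM in SLR14 and 54.5 ± 21.5 CPM in poly(I:C) (SD, n = 3 each). With SLR10 Cr2 was also lower than vehicle, by -2.36 to -1.61 on the log2 scale over 20 alternatives, and passed in all 20. Itgax, the alpha chain of complement receptor 4 and a dendritic cell marker, fell by 1.78 ± 0.18 with SLR10, 1.95 ± 0.18 with SLR14 and 1.71 ± 0.18 with poly(I:C) (limma adjusted p at most 7.66e-06). Of the 5 dendritic cell markers, Itgax among them, 4 were called lower in each SLR and 5 in poly(I:C), beside 19.2%, 19.4% and 17.3% of all tested genes. They summed to 156 and 160 CPM in vehicle, 55.0 to 64.8 CPM with the SLRs and 53.1 to 68.96 CPM with poly(I:C), none was at 0, and their part in the Itgax values was not tested. C5ar1, a C5a receptor of neutrophils and other myeloid cells, went the other way. It was at 2.55 and 2.14 CPM in vehicle, rose by 1.88 ± 0.40 with SLR10 and was the only gene of this list called with pppNS (1.59 ± 0.40, limma adjusted p = 0.036). The pppNS call was lost without pppNS replicate 3 (1.19) or either vehicle library (1.69 and 1.49), with limma adjusted p from 0.0814 to 0.306. Of the 8 neutrophil markers, 4 were called higher in SLR10, 5 in SLR14, 6 in poly(I:C) and 4 in pppNS, beside 20.2%, 19.3%, 18.6% and 2.95% of all tested genes. They summed to 177 and 179 CPM in vehicle, 271 to 322 CPM in naive spleen and 497 to 968 CPM with the SLRs. With poly(I:C) their sum was 899 to 1487 CPM and with pppNS 323 to 1153 CPM. None of these markers was at 0, and their part in the C5ar1 values was not tested.

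**Figure D5:**
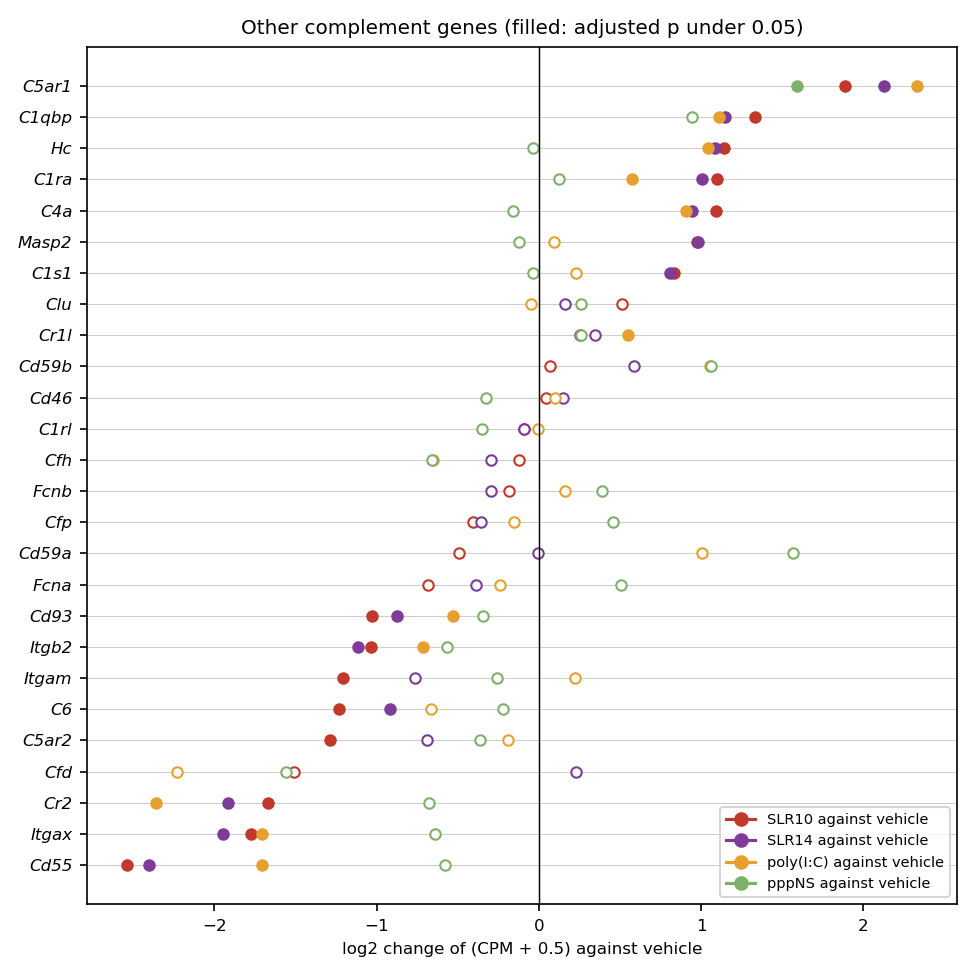
Log2 change against vehicle of the 26 other complement genes that passed the filter, ordered by their change with SLR10, with filled points for an adjusted p under 0.05 (limma). C5ar1, Hc and C1ra lie on the right and Cd55, Itgax and Cr2 on the left for SLR10, SLR14 and poly(I:C), but C1ra in poly(I:C) went from 0.57 to -0.041 under scaling to named-gene reads.

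For each member the genes with the nearest pattern over the 17 libraries were found by the root mean square (RMS) difference of centred log2 levels. C1qa and C1qc were each other's nearest gene (0.12), followed by Lgals1 and Cfp for C1qa and by Cfp and Pld3 for C1qc. Cfp encodes properdin, the stabiliser of the alternative C3 convertase, and at 323 CPM in pppNS replicate 3 against at most 121 CPM in its group mates it showed the same high library. C1qb lay nearest to Macrod1, Zmat5 and Tmem160 (from 0.14). Serping1 lay nearest to C1ra (0.15), C1s1 (0.16) and C3 (0.19), and C3 to Lpar1 (0.16), C1ra (0.17) and Serping1 (0.19). C4b lay nearest to Islr, Tsku and Ltbp1 (from 0.20), Cfb to Gemin5, Ctps and Fanca (from 0.20), and C2 to B2m, Ranbp1 and Cndp2 (from 0.22). For C3ar1 the nearest were Fndc1, Trim47 and Prmt10 (from 0.26), not far below its own RMS deviation of 0.32, so its pattern is poorly defined at this depth.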

How the data were processed

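Spleen RNA of 17 libraries in 6 groups was sequenced from stranded mRNA libraries, per the labels. The submitters' processing notes name TopHat2 2.0.6 and TopHat, HTSeq, edgeR, SAMtools 1.4 and FastQC, with the builds GRCm38 and mm10. What each tool did, which annotation was used and how strand was set are not given in the sources used here. As deposited, the expression table is in signal values named edgeR-normalised CPM by the authors, with column sums of 696096 to 1484240. Each value is a whole multiple of 1 step per library (100% of values within 0.05 reads), so reads were recovered for edgeR and DESeq2. Of 39184 lines, 5 without a gene name (28.1% to 46.1% of a library's reads), 699 named #N/D, 27 with names turned into numbers and 113 repeats were left out.

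Genes reaching 1 CPM in 2 or more libraries were tested on log2(CPM + 0.5) with limma 3.58.1 (R 4.3.3), all 17 libraries in 1 fit with a mean-variance trend, and Benjamini-Hochberg adjustment over all genes within each of 8 comparisons. The code was tested on simulated data. Named were all 9 members, up to 4 called genes of the wider complement list per comparison by adjusted p, 3 nearest genes per member (numbered models and receptor segments left out) and overlapping genes; C1s1, C4a, Masp2 and Cfp values were added after they were seen. The members and lists were chosen with earlier results of these data known. Alternatives were pseudocounts of 0.1 and 2, no filter or one of 5 CPM, 2 scalings (median of ratios, quantile), library weights, only the groups compared, other controls, a replicate block, edgeR 4.0.16, DESeq2 1.42.0 and each replicate left out. Scaling to named-gene reads and leaving out erythroid-high libraries were added after the data were seen. Positions are from GENCODE vM21 and promoters from RefSeq. Counting limits cover counting error only, and PCR copies are not independent.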

Additional observations from a re-analysis of the deposited data

How the results depend on the processing

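Of 2145 single-gene values of members and other named complement genes under the alternatives, 1824 kept their direction and their side of the threshold, 91 lost and 103 gained a call, 125 changed sign with a call in neither analysis, and 2 reversed. C4b in SLR10 against vehicle was at -0.0004 under quantile scaling, and C1ra in poly(I:C) against vehicle, called at 0.57, was at -0.041 with named-gene scaling. The number of the 9 genes called with SLR10 against vehicle (5, all higher) became 3 without the filter and with a replicate block, 8 (6 higher, 2 lower) with library weights, and 3 with any 1 replicate left out. It was 4 (2 higher, 2 lower) under quantile scaling and under scaling to named-gene reads. It was 7 (5 higher, 2 lower) with only the groups compared, with either other control and without the erythroid-high libraries. With SLR14 (4, all higher) it became 7 (5 higher, 2 lower) with library weights and 3 to 5 with replicates left out. Under quantile scaling it was 5 (3 higher, 2 lower) and with named-gene scaling 3 (1 higher, 2 lower). It was 6 with naive as the control (4 higher, 2 lower) and with naive and vehicle as the control (5 higher, 1 lower). Without the erythroid-high libraries it was 6 (4 higher, 2 lower). With poly(I:C) (1, higher) it became 0 under the 5 CPM filter, at which Cfb was no longer tested, 4 (1 higher, 3 lower) under quantile scaling and scaling to named-gene reads, and 4 (all higher) with library weights. It was 2 (both higher) with only the groups compared and with naive and vehicle as the control, 2 (1 each way) with naive as the control, 6 (4 higher, 2 lower) without the erythroid-high libraries, and 1 to 2 with replicates left out. With pppNS (0) it became 1, higher, with library weights, with naive and vehicle as the control and without the erythroid-high libraries. Library weights and leaving out the erythroid-high libraries also raised the calls over all genes. For SLR10 the 2826 higher and 2694 lower became 5021 and 4966, and 4080 and 4252. For pppNS the 414 and 189 became 2544 and 1558, and 1668 and 561. For vehicle against naive the 2 and 5 became 3832 and 4190, and 948 and 1031. Beside that, the number of the 9 genes called for vehicle against naive (0) became 4 with library weights. It became 3 without the erythroid-high libraries, and all these calls were lower. For poly(I:C) against both SLRs (3, all lower) it became 0 without the filter, with named-gene scaling and without the erythroid-high libraries, 1 under quantile scaling, with only the groups compared and with the replicate block, and 0 to 3 with replicates left out. For pppNS against both SLRs (4, all lower) it became 7 with library weights (2 higher, 5 lower) and with DESeq2 (3 higher, 4 lower), and 4 to 7 with replicates left out. It was 5 (3 higher, 2 lower) under quantile scaling and 6 (3 higher, 3 lower) with named-gene scaling. With the replicate block and with edgeR it was 6 (2 higher, 4 lower), and without the erythroid-high libraries 6 (1 higher, 5 lower). SLR14 against SLR10 stayed at 0 in the alternatives run for it. The cause of these changes was not tested. Replicate numbers were not used as pairs in the main fit. Residuals of equal numbers correlated above 0.1 in 15 of 40 pairs (median 0.03) and those of different numbers in 27 of 80 (median -0.028). With so few libraries per group this cannot exclude that equal numbers shared a batch. Vehicle had only 2 libraries, and C3ar1 rested on 12 to 62 reads and Cfb in the controls on 6 to 24 reads per library.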

Other observations

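Ratios between complement genes of 1 library are not moved by a scaling with 1 factor per library, though quantile scaling can move them, and 3 of them were computed after the values had been seen, so they are given without a test. C1qa to C1qb was 0.787 to 0.842 in the 6 SLR libraries, 0.837 to 0.943 with poly(I:C), 0.909 to 1.03 with pppNS and 1.05 to 1.13 in the 5 control libraries. C1qc to C1qb was 0.832 to 0.889 in the SLR libraries, 0.843 to 0.908 with poly(I:C), 0.994, 0.995 and 0.775 in the pppNS libraries and 1.02 to 1.17 in the controls. The chain genes thus did not keep 1 ratio across groups, although their protein products are assembled together. In pppNS replicate 3, where all chain genes were high on the deposited scale, C1qa to C1qc was 1.33, against 0.915 and 0.967 in its group mates. C3 to C4b was 4.66 to 5.78 in the SLR libraries, 4.66 to 5.87 with poly(I:C), 3.11 to 4.99 with pppNS, which overlapped both, and 3.20 to 3.74 in the controls, so C3 gained on C4b also in the poly(I:C) libraries, in which C4b did not pass against vehicle. C3 to Serping1 overlapped between SLR libraries (4.03 to 5.12), poly(I:C) (3.94 to 5.12), pppNS (3.87 to 6.10) and controls (3.56 to 4.93).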
